A study of Mus musculus with 20 samples.

Results

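The 48 genes described here encode factors that make ribosomes. They are subunits and partners of RNA polymerase I, the proteins of the box C/D and box H/ACA snoRNPs, abundant nucleolar proteins, and assembly factors of the small and large subunits. They were chosen by name and by no value measured in these cells, and all 48 have a row among the 49315 gene rows of the count table and were among the 28082 genes tested. RNA was sequenced from sorted splenic CD4+CD25- T effector cells of mice, in 20 libraries. The libraries comprise 3 CKO libraries (floxed Pcbp2 with CD4-Cre) and 5 CTL libraries (control littermates with floxed Pcbp2) after 6 h with CD3/CD28 beads, and 6 CKO and 6 CTL libraries of cells frozen unstimulated at 0 h. Pcbp2 encodes a poly(C)-binding protein of RNA, the beads engage the antigen receptor complex and its costimulatory receptor, and the question was how expression differs with and without Pcbp2. Cre under the Cd4 promoter acts already in developing T cells, so the CKO cells matured without Pcbp2. No culture of 6 h without beads is analysed here, so the effect of the beads and that of the culture cannot be told apart. The labels name littermates but tie no library to an animal, so the p-values measure the spread between libraries, which may be technical in part.

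Ribosomes are built in the nucleolus, where RNA polymerase I transcribes a long precursor of ribosomal RNA. Small nucleolar RNPs modify this precursor, box C/D particles by methylation of ribose and box H/ACA particles by pseudouridylation, while large assemblies fold and cut it into the RNAs of the small and the large subunit. Resting T cells make few ribosomes, and cells that have met antigen enlarge their nucleoli before they divide; Myc is the best known activator of the genes involved. Poly(A)-selected libraries measure the mRNAs of these factors and do not measure the ribosomal RNA they make. In bulk samples such as these, fewer cells of a type and less RNA per cell cannot be told apart.

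Levels are given in CPM on the TMM-scaled library size. The number after ± is the SD of a level or the standard error of a log2 fold change. Called means an edgeR p under 0.05, two-sided and adjusted over the 28082 genes. Total counts were between 62.4 M and 85.6 M in 19 libraries and 26.4 M in CTL library 4.24 at 6 h, where 20 of the 48 genes had their lowest level of all libraries. Each of the 48 genes had at least 798 counts in every library, so counting error is small beside the spread between libraries. Pcbp2 lay between 7.27 and 11.3 CPM in CKO against 262 to 348 CPM in CTL at 6 h, and between 13.1 and 22.1 CPM in CKO against 261 to 396 CPM in CTL at 0 h. CKO libraries 4.24 and 5.6 at 0 h are labelled male but had 1160 and 1350 CPM of Xist, the RNA of the inactive X chromosome of female cells. Ddx3y, which lies on the Y chromosome, had 0.284 and 0.117 CPM there. At 6 h against 0 h, 13.7% of all genes tested were called lower in CKO and 20.5% in CTL, and 22.3% and 40.2% higher. Over genes with a mean of at least 1 CPM, 24.3% were called lower in CKO and 36.8% in CTL. The 8 T cell markers were counted in every library, and 7 of the 8 were called lower at 6 h in each genotype. Their summed level was 2531 to 2882 CPM in CKO at 6 h against 4860 to 6067 CPM in CKO at 0 h, and 2127 to 2785 CPM in CTL at 6 h against 4216 to 5637 CPM in CTL at 0 h. B cell markers summed to 21.6 to 88.8 CPM in CKO at 6 h against 47.0 to 224 CPM at 0 h (1 of 8 called lower). In CTL they summed to 17.6 to 55.7 CPM at 6 h against 55.6 to 353 CPM at 0 h (7 of 8 called lower). Myeloid and dendritic markers summed to 14.2 to 51.7 CPM in CKO at 6 h against 78.9 to 181 CPM at 0 h, and to 12.3 to 41.0 CPM in CTL at 6 h against 52.7 to 157 CPM at 0 h (6 of 10 called lower in each genotype). CD8 and NK markers summed to 27.8 to 37.9 CPM in CKO at 6 h against 73.9 to 114 CPM at 0 h (3 of 5 called lower), and to 19.1 to 30.0 CPM in CTL at 6 h against 63.8 to 174 CPM at 0 h (4 of 5 called lower). Cycling markers summed to 84.3 to 108 CPM in CKO at 6 h against 128 to 289 CPM at 0 h (edgeR called 0 of 6, with 4 at an unadjusted p under 0.05), and to 49.9 to 116 CPM in CTL at 6 h against 85.0 to 313 CPM at 0 h (4 of 6 called lower). Erythroid and platelet markers summed to 3.26 to 11.8 CPM over all libraries (2 of 5 tested called higher and 2 lower at 6 h in CKO, 2 higher and 1 lower in CTL), and no marker of any list was called between the genotypes by edgeR. The part of these markers in the results below was not tested.

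In unstimulated cells the 48 mRNAs spanned a wide range of levels. Per kilobase of the union of annotated exons, Npm1, which encodes the nucleolar chaperone nucleophosmin, was the highest with 174 ± 25.0 CPM per kb in CKO and 181 ± 24.3 CPM per kb in CTL (SD, n = 6 each). Nop53, a large-subunit factor that recruits the RNA exosome to the precursor, followed with 122 ± 15.5 CPM per kb in CKO and 102 ± 17.5 CPM per kb in CTL. Rrp1, another large-subunit factor, was next with 65.1 ± 5.46 CPM per kb in CKO and 63.2 ± 7.08 CPM per kb in CTL. Noc2l, with 64.9 ± 3.57 CPM per kb in CKO and 56.7 ± 6.27 CPM per kb in CTL, does not differ from Rrp1 beyond their spread. The lowest levels per length were those of Wdr12, part of the complex of Pes1, Bop1 and Wdr12 that processes the large-subunit RNA, with 2.57 ± 0.376 CPM per kb in CKO and 3.28 ± 0.552 CPM per kb in CTL. Polr1e, a subunit of RNA polymerase I, had 6.41 ± 0.370 CPM per kb in CKO and 6.98 ± 0.524 CPM per kb in CTL. Nop58, a core protein of box C/D snoRNPs, had 6.56 ± 0.344 CPM per kb in CKO and 7.00 ± 0.522 CPM per kb in CTL, and does not differ from Polr1e beyond their spread. The exon union counts every annotated isoform and measures 12.0 kb for Wdr12 and 10.8 kb for Nop58, which lowers their values per length.

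After 6 h with beads most of the genes stood higher than at 0 h, in both genotypes, but with a wide spread between libraries. In CKO, 12 genes were called higher at 6 h than at 0 h and 1 lower, against 22.3% of all genes tested called higher and 13.7% called lower. In CTL, 32 were called higher and 1 lower, against 40.2% of all genes called higher and 20.5% called lower. The share called higher in CKO is thus near the background of all genes, and that in CTL lies above it. Over the 14189 genes with a mean of at least 1 CPM, where all 48 belong, the same fit called 10.3% higher and 24.3% lower in CKO, and 17.0% higher and 36.8% lower in CTL. The median log2 fold change of the 48 genes was 0.34 in CKO and 0.55 in CTL, beside 0.15 and 0.32 over all 28082 genes. Over the genes with a mean of at least 1 CPM it was -0.14 in CKO and -0.18 in CTL. Of the 48 fold changes, 43 were positive in CKO and 45 in CTL. The TMM factors lay between 1.02 and 1.37 at 6 h, against 0.861 to 1.01 at 0 h, and the counts of calls moved with the scaling and the filter on low levels. With only genes of a mean of at least 1 CPM in the fit, 28 of the 48 were called higher and 1 lower in CKO, against 16.5% and 17.4% of the genes in that fit. In CTL it was 41 higher and 1 lower, against 27.7% and 23.6%. In that fit the median log2 fold changes were 0.49 in CKO and 0.77 in CTL, beside 0.00 and 0.04 over all genes in it. With library totals in place of TMM factors the medians of the 48 were 0.47 in CKO and 0.78 in CTL, beside 0.27 and 0.59 over all genes, and with RLE factors 0.42 and 0.63 beside 0.22 and 0.40. Deviations of the same-numbered libraries of a genotype at 6 h and 0 h correlated at 0.18 to 0.50. With the number as a block, 9 were called higher and 1 lower in CKO, against 32.9% and 15.2% of all genes. The share called higher thus lay below the background. In CTL the block gave 28 higher and 1 lower, against 41.8% and 22.0%, above the background of higher calls.

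DESeq2 gave 20 of the 48 genes called higher and 1 lower in CKO, against 25.0% and 13.5% of all genes, and 36 higher and 1 lower in CTL, against 42.4% and 18.6%. With the filter of a mean of at least 1 CPM and without CTL library 4.24 at 6 h, 32 were called higher and 1 lower in CKO, against 22.9% and 23.6% of the genes in that fit. In CTL that setting gave 45 higher and 1 lower, against 27.7% and 27.2%. This last combination was chosen after seeing the data. Whether the share called higher in CKO lay near, above or below that of all genes thus turned on the fit.

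The count of calls in CKO changed with the single library left out of the fit. Of the 13 calls there, 4 (Ubtf, Ncl, Noc4l and Nop16) were kept when each of the 20 libraries was left out in turn. Without CKO library 11.18 at 6 h, 3 were called higher and 1 lower, against 14.9% and 8.7% of all genes. Leaving out CKO library 4.29, 5.6 or 9.20 at 0 h gave 6, 5 and 4 called higher, against 17.6% to 18.6% of all genes, with 1 lower each time. Leaving out CTL library 4.24 at 6 h gave 23 higher and 1 lower, against 30.6% and 19.7%. Over the 20 fits the share of the 48 genes called higher in CKO was 6.25% to 47.9%, against 12.9% to 30.6% of all genes. It lay below that of all genes in 5 fits, these 4 without a CKO library and that without CTL library 5.6 at 0 h, and above it in 15. Without both CKO libraries at 0 h whose Xist level goes against their label, CKO had 3 called higher and 1 lower, against 5601 of 27966 genes higher and 12.8% lower, a share of higher calls below the background. CTL had 22 higher and 1 lower, against 37.0% and 22.2%. In CTL, 23 of the 33 calls were kept in all 20 fits, and the count lay between 23 and 40. The share of the 48 genes called higher was above that of all genes in each of them, with 45.8% to 81.2%, against 32.4% to 41.5%. The 10 calls lost in 1 or more of these fits were those of Polr1e, Fbl, Nop10, Gar1, Mybbp1a, Wdr43, Nop14, Wdr12, Pes1 and Rrp1b, and each of them was lost without CKO library 4.29, without 5.6 and without 9.20 at 0 h. No CKO library is itself part of the CTL comparison. Without 4.29, 5.6 or 9.20 the median log2 fold change over all genes tested in CTL was 0.21, against 0.32 with all libraries.

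**Figure D1:**
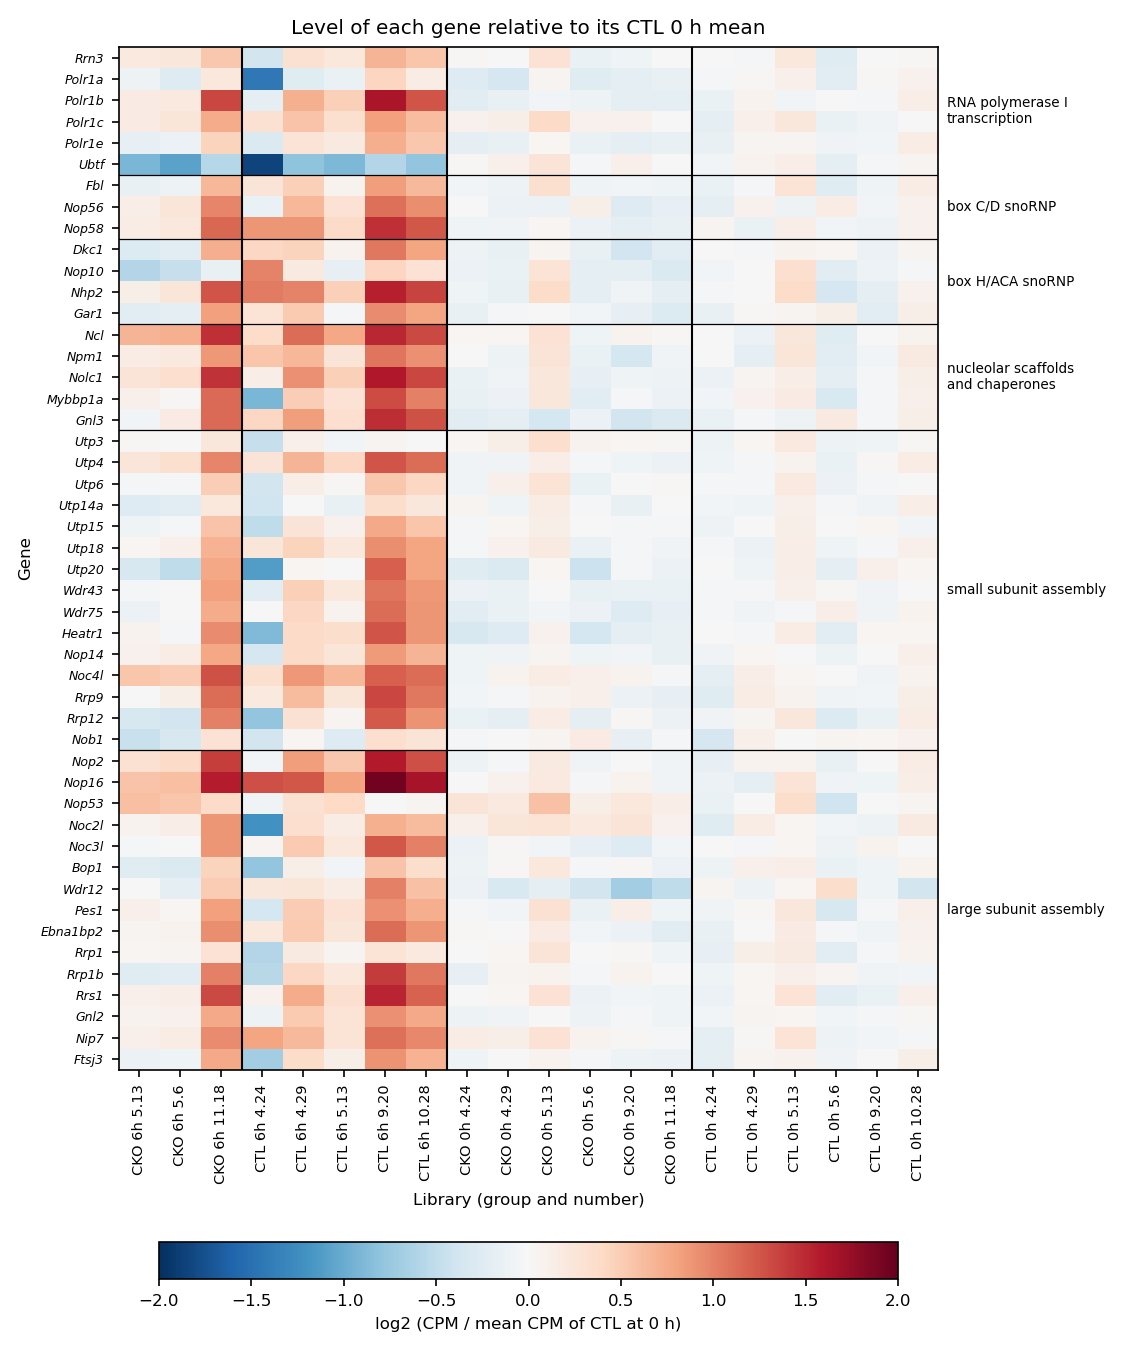
Level of each of the 48 genes (rows, grouped by role) in each of the 20 libraries (columns) as log2 of its CPM over the mean CPM of CTL at 0 h, from blue (lower) to red (higher). The 6 h libraries CKO 11.18, CTL 9.20 and CTL 10.28 are red for nearly all genes, CTL library 4.24 at 6 h is blue for many, and Ubtf is blue in all 8 libraries at 6 h.

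Of the 48 genes, 13 were called in both genotypes, 0 in CKO and not in CTL, 20 in CTL and not in CKO, and 15 in neither. The difference between both responses was tested as an interaction and was called for 0 of the 48 genes by edgeR (1 at an unadjusted p under 0.05) and for 0 by DESeq2, against 0.0% of all genes in either direction by both, so a call in CTL alone does not show a difference between the genotypes. The groups at 6 h and 0 h did not overlap for 13 of the 48 genes in CKO, against 47.0% of all genes tested, and for 14 in CTL, against 29.9%. Over genes with a mean of at least 1 CPM these shares were 41.9% in CKO and 30.6% in CTL, so groups without overlap were no more common among the 48 genes than over all genes. Values at 6 h are given below in the order of the library numbers, 5.13, 5.6 and 11.18 in CKO and 4.24, 4.29, 5.13, 9.20 and 10.28 in CTL.

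**Figure D2:**
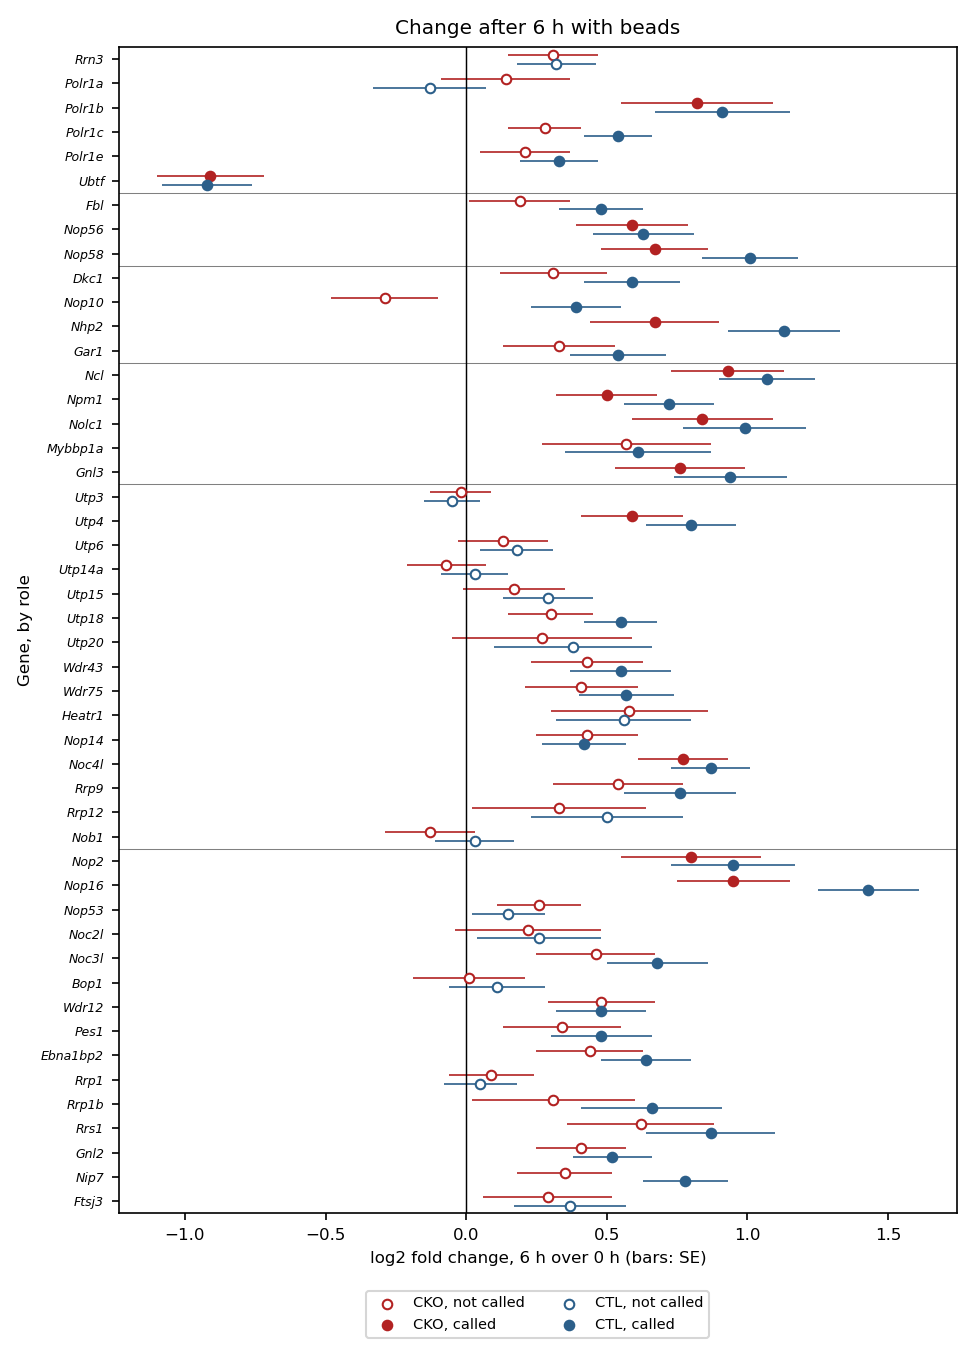
Log2 fold change of each of the 48 genes (rows, by role) at 6 h over 0 h in CKO (red) and CTL (blue), with the standard error as a bar; filled points are called and open points are not. In CKO 13 points are filled and in CTL 33, and all filled points lie right of 0 except Ubtf.

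Among the 6 genes of RNA polymerase I transcription, CKO had 1 higher and 1 lower calls, and CTL had 3 higher and 1 lower calls. Polr1b encodes a subunit of the catalytic core of the enzyme. Polr1b had 57.3, 58.7 and 129.6 CPM in CKO at 6 h, against a lowest, median and highest of 44.3, 45.8 and 49.3 CPM in CKO at 0 h. Polr1b had 44.9, 83.9, 71.5, 158 and 122 CPM in CTL at 6 h, against a lowest, median and highest of 46.6, 50.7 and 56.1 CPM in CTL at 0 h. All 3 CKO libraries at 6 h lay above all CKO libraries at 0 h, with 11.18 far above the other two, while CTL library 4.24 lay below every CTL library at 0 h and 9.20 was the highest of all. Polr1b had a log2 fold change of 0.82 ± 0.27 (edgeR adjusted p = 0.0234, 3 of 3 libraries above the 0 h mean) in CKO. For Polr1b in CTL it was 0.91 ± 0.24 (edgeR adjusted p = 0.00303, 4 of 5 libraries above the 0 h mean). The CKO call of Polr1b was lost without CKO library 4.29, 5.6 or 9.20 at 0 h, CTL library 5.6 at 0 h or CKO library 11.18 at 6 h, where the log2 fold change was 0.32.

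Ubtf, which encodes the upstream binding factor that holds ribosomal DNA in an active state and starts transcription by RNA polymerase I, was the only one of the 48 genes called lower in either genotype. Ubtf had 167, 149 and 211 CPM in CKO at 6 h, against a lowest, median and highest of 303, 327 and 375 CPM in CKO at 0 h. Ubtf had 86.4, 179.7, 169, 208 and 182 CPM in CTL at 6 h, against a lowest, median and highest of 273, 315 and 343 CPM in CTL at 0 h. All 8 libraries at 6 h lay below all 12 libraries at 0 h, and CTL library 4.24 was the lowest. Ubtf had a log2 fold change of -0.91 ± 0.19 (edgeR adjusted p = 0.00149, 3 of 3 libraries below the 0 h mean) in CKO. For Ubtf in CTL it was -0.92 ± 0.16 (edgeR adjusted p = 0.000118, 5 of 5 libraries below the 0 h mean). Over all alternatives its log2 fold change lay between -1.07 and -0.76 in CKO and between -1.02 and -0.58 in CTL, and it was called in 33 of 34 in CKO and in all 34 in CTL.

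Polr1c, a subunit shared by RNA polymerases I and III, had 56.5, 67.8, 57.4, 81.0 and 70.1 CPM in CTL at 6 h, all above the CTL range at 0 h of 40.5 to 53.6 CPM. Polr1c thus had a log2 fold change of 0.28 ± 0.13 (edgeR adjusted p = 0.112, 3 of 3 libraries above the 0 h mean) in CKO. For Polr1c in CTL it was 0.54 ± 0.12 (edgeR adjusted p = 0.000794, 5 of 5 libraries above the 0 h mean). Polr1e had a log2 fold change of 0.21 ± 0.16 (edgeR adjusted p = 0.328, 2 of 3 libraries above the 0 h mean) in CKO. For Polr1e in CTL it was 0.33 ± 0.14 (edgeR adjusted p = 0.0456, 4 of 5 libraries above the 0 h mean), where 15 of the 20 fits without a single library lost the call. Rrn3, which brings the polymerase to its promoter, had log2 fold changes of 0.31 ± 0.16 in CKO and 0.32 ± 0.14 in CTL and was called in neither (edgeR adjusted p = 0.135 and 0.051). Polr1a, the largest subunit, had 0.14 ± 0.23 in CKO and -0.13 ± 0.20 in CTL (edgeR adjusted p = 0.654 and 0.594), and its CTL libraries at 6 h ran from 44.3 CPM in 4.24 to 161 CPM in 9.20.

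Of the 3 box C/D genes, 2 were called higher in CKO (66.7%, beside 22.3% of all genes) and all 3 in CTL (beside 40.2%). Nop58 had 83.7, 87.0 and 167 CPM in CKO at 6 h, against a lowest, median and highest of 66.7, 70.2 and 77.2 CPM in CKO at 0 h. Nop58 had 138, 139, 98.1, 207 and 177 CPM in CTL at 6 h, against a lowest, median and highest of 68.9, 75.2 and 82.8 CPM in CTL at 0 h. Both groups at 6 h lay wholly above their group at 0 h, and here CTL library 4.24 lay with the others. Nop58 had a log2 fold change of 0.67 ± 0.19 (edgeR adjusted p = 0.0119, 3 of 3 libraries above the 0 h mean) in CKO. For Nop58 in CTL it was 1.01 ± 0.17 (edgeR adjusted p = 9.42e-05, 5 of 5 libraries above the 0 h mean). The CKO value of Nop58 was 0.27 and not called without CKO library 11.18 at 6 h. Nop56, the partner of Nop58 in the particle, had 169, 184 and 304 CPM in CKO at 6 h, above all CKO libraries at 0 h (129 to 167 CPM), and 141, 244, 188, 331 and 294 CPM in CTL at 6 h, of which 4.24 lay within the CTL range at 0 h (136 to 171 CPM). Nop56 thus had a log2 fold change of 0.59 ± 0.20 (edgeR adjusted p = 0.031, 3 of 3 libraries above the 0 h mean) in CKO. For Nop56 in CTL it was 0.63 ± 0.18 (edgeR adjusted p = 0.00497, 4 of 5 libraries above the 0 h mean). The CKO call of Nop56 was lost in 8 of the 20 fits without a single library, with a value of 0.27 without CKO library 11.18 at 6 h. Fbl, the methyltransferase fibrillarin, had 0.19 ± 0.18 in CKO (edgeR adjusted p = 0.435), with only CKO library 11.18 (178 CPM) above the CKO libraries at 0 h (105 to 141 CPM). In CTL, Fbl changed by 0.48 ± 0.15 (edgeR adjusted p = 0.0113, 5 of 5 libraries above the 0 h mean).

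Of the 4 box H/ACA genes, 1 was called higher in CKO, Nhp2, and all 4 in CTL. The share in CKO, 25.0%, is near the 22.3% of all genes, and in CTL all genes gave 40.2%. Nhp2 had 37.9, 41.5 and 84.0 CPM in CKO at 6 h, against a lowest, median and highest of 30.7, 32.3 and 45.1 CPM in CKO at 0 h. Nhp2 had 71.9, 70.2, 48.8, 104 and 89.8 CPM in CTL at 6 h, against a lowest, median and highest of 27.9, 34.7 and 45.1 CPM in CTL at 0 h. In CTL the groups did not overlap, and in CKO libraries 5.13 and 5.6 lay within the range at 0 h while 11.18 lay above it. Nhp2 had a log2 fold change of 0.67 ± 0.23 (edgeR adjusted p = 0.0269, 3 of 3 libraries above the 0 h mean) in CKO. For Nhp2 in CTL it was 1.13 ± 0.20 (edgeR adjusted p = 0.000149, 5 of 5 libraries above the 0 h mean). The CKO value of Nhp2 was 0.21 and not called without CKO library 11.18 at 6 h; the call was also lost without CKO library 4.29, 5.6 or 9.20 at 0 h. Dkc1, the pseudouridine synthase dyskerin, had a log2 fold change of 0.31 ± 0.19 in CKO and was not called (edgeR adjusted p = 0.22). Dkc1 had 94.4, 96.0, 73.9, 146 and 122 CPM in CTL at 6 h, against 65.3 to 73.9 CPM in CTL at 0 h, a log2 fold change of 0.59 ± 0.17 (edgeR adjusted p = 0.00481, 5 of 5 libraries above the 0 h mean). Gar1, another protein of the particle, had 0.33 ± 0.20 in CKO (edgeR adjusted p = 0.201) and changed by 0.54 ± 0.17 (edgeR adjusted p = 0.0108, 4 of 5 libraries above the 0 h mean) in CTL.

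Nop10, the smallest protein of the box H/ACA particle, was called higher in CTL, while its log2 fold change in CKO had the opposite sign and was not called. Nop10 had 32.1, 35.2 and 43.8 CPM in CKO at 6 h, against a lowest, median and highest of 39.5, 43.2 and 58.2 CPM in CKO at 0 h. Nop10 had 95.8, 54.6, 43.3, 64.9 and 59.1 CPM in CTL at 6 h, against a lowest, median and highest of 41.9, 46.8 and 61.1 CPM in CTL at 0 h. CTL library 4.24 at 6 h, with the fewest counts, had the highest Nop10 level of all 20 libraries. The other 4 CTL libraries at 6 h overlapped those at 0 h, and CKO libraries 5.13 and 5.6 at 6 h lay below all others. In CTL library 4.24 at 6 h, the levels of the 48 genes over the other libraries of the group had a Spearman correlation of -0.40 with exon length. In the 20 libraries this correlation ran from -0.40 to 0.60, the highest in CKO library 11.18 at 0 h. It ranks the deviations and does not give their size, so it does not show how large the part of length is in a library. Nop10 has 1.11 kb of exons, and the part of length in its level was not tested. Nop10 had a log2 fold change of -0.29 ± 0.19 (edgeR adjusted p = 0.239, 3 of 3 libraries below the 0 h mean) in CKO. For Nop10 in CTL it was 0.39 ± 0.16 (edgeR adjusted p = 0.0372, 4 of 5 libraries above the 0 h mean). Without CTL library 4.24 at 6 h the CTL value of Nop10 was 0.21 and not called (edgeR adjusted p = 0.169). The call was lost in 10 of the 20 fits without a single library: those without CKO library 4.29, 5.6 or 9.20 at 0 h, CTL library 4.24, 4.29, 5.6, 9.20 or 10.28 at 0 h, or CTL library 4.24 or 9.20 at 6 h.

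Of the 5 nucleolar scaffold and chaperone genes, 4 were called higher in CKO (80.0%, beside 22.3% of all genes) and all 5 in CTL (beside 40.2%). Ncl encodes nucleolin, an abundant RNA-binding protein of the nucleolus. Ncl had 836, 847 and 1433 CPM in CKO at 6 h, against a lowest, median and highest of 489.9, 533 and 636 CPM in CKO at 0 h. Ncl had 668, 1123, 885, 1481 and 1299 CPM in CTL at 6 h, against a lowest, median and highest of 438, 524 and 608 CPM in CTL at 0 h. Every library at 6 h lay above every library at 0 h of either genotype, with CKO 11.18 and CTL 9.20 the highest. Ncl had a log2 fold change of 0.93 ± 0.20 (edgeR adjusted p = 0.00181, 3 of 3 libraries above the 0 h mean) in CKO. For Ncl in CTL it was 1.07 ± 0.17 (edgeR adjusted p = 7.5e-05, 5 of 5 libraries above the 0 h mean). Npm1 had 536, 551 and 881 CPM in CKO at 6 h, against a lowest, median and highest of 377, 453 and 579 CPM in CKO at 0 h. Npm1 had 706, 764, 578, 1008 and 909.8 CPM in CTL at 6 h, against a lowest, median and highest of 411, 471 and 571 CPM in CTL at 0 h. CTL groups did not overlap, and CKO libraries 5.13 and 5.6 lay within the CKO range at 0 h. Npm1 had a log2 fold change of 0.50 ± 0.18 (edgeR adjusted p = 0.0375, 3 of 3 libraries above the 0 h mean) in CKO. For Npm1 in CTL it was 0.72 ± 0.16 (edgeR adjusted p = 0.000834, 5 of 5 libraries above the 0 h mean). The CKO value of Npm1 was 0.22 and not called without CKO library 11.18 at 6 h; the call was also lost without CKO library 4.29, 5.6, 9.20 or 11.18, or CTL library 5.6 or 9.20, at 0 h.

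Nolc1, a chaperone of snoRNPs in the nucleolus, had 114, 119.9 and 259 CPM in CKO at 6 h, above all CKO libraries at 0 h (84.7 to 111 CPM), and 104, 179.5, 133, 289 and 241 CPM in CTL at 6 h, of which 4.24 lay within the CTL range at 0 h (84.5 to 105 CPM). Nolc1 thus had a log2 fold change of 0.84 ± 0.25 (edgeR adjusted p = 0.0158, 3 of 3 libraries above the 0 h mean) in CKO. For Nolc1 in CTL it was 0.99 ± 0.22 (edgeR adjusted p = 0.00104, 5 of 5 libraries above the 0 h mean). Gnl3 encodes the GTP-binding protein nucleostemin and had 52.5, 60.7 and 119.7 CPM in CKO at 6 h against 42.3 to 50.5 CPM in CKO at 0 h. It had 72.6, 97.7, 68.8, 152 and 132 CPM in CTL at 6 h against 49.8 to 62.0 CPM in CTL at 0 h. In neither genotype did its groups overlap. Gnl3 had a log2 fold change of 0.76 ± 0.23 (edgeR adjusted p = 0.0144, 3 of 3 libraries above the 0 h mean) in CKO. For Gnl3 in CTL it was 0.94 ± 0.20 (edgeR adjusted p = 0.000649, 5 of 5 libraries above the 0 h mean). Without CKO library 11.18 at 6 h the CKO values of Nolc1 and Gnl3 were 0.34 and 0.30, and neither was called. Nolc1 was also not called without CKO library 5.6 or 9.20 at 0 h, and Gnl3 without CKO library 9.20 at 0 h. Mybbp1a, a nucleolar protein that binds transcription factors, had 0.57 ± 0.30 in CKO (edgeR adjusted p = 0.144). In CTL, Mybbp1a changed by 0.61 ± 0.26 (edgeR adjusted p = 0.0499, 4 of 5 libraries above the 0 h mean), a call lost in 17 of the 20 fits without a single library. Its level in CTL library 4.24 at 6 h, 112 CPM, was the lowest of all libraries, against 258 to 521 CPM in the other CTL libraries at 6 h.

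Of the 15 genes of small subunit assembly, 2 were called higher in CKO and 7 in CTL, and none lower in either. The share called higher in CKO, 13.3%, lay below the 22.3% of all genes, and that in CTL, 46.7%, was near their 40.2%. Over genes with a mean of at least 1 CPM the shares were 10.3% and 17.0%. Noc4l, which works with Nop14 in the maturation and export of the small subunit in yeast, rose in both genotypes. Noc4l had 54.6, 52.7 and 90.3 CPM in CKO at 6 h, against a lowest, median and highest of 35.2, 39.0 and 41.3 CPM in CKO at 0 h. Noc4l had 46.3, 67.7, 59.1, 85.2 and 80.7 CPM in CTL at 6 h, against a lowest, median and highest of 32.7, 37.6 and 40.9 CPM in CTL at 0 h. The groups did not overlap in either genotype, and the spread at 0 h was small. Noc4l had a log2 fold change of 0.77 ± 0.16 (edgeR adjusted p = 0.00173, 3 of 3 libraries above the 0 h mean) in CKO. For Noc4l in CTL it was 0.87 ± 0.14 (edgeR adjusted p = 8.53e-05, 5 of 5 libraries above the 0 h mean). Utp4 had 53.1, 55.9 and 88.0 CPM in CKO at 6 h, against a lowest, median and highest of 41.4, 42.6 and 49.2 CPM in CKO at 0 h. Utp4 had 53.6, 71.5, 59.6, 107 and 97.5 CPM in CTL at 6 h, against a lowest, median and highest of 40.7, 44.6 and 49.4 CPM in CTL at 0 h. For Utp4, part of the first complex to bind the precursor RNA in yeast, the groups did not overlap in either genotype. Utp4 had a log2 fold change of 0.59 ± 0.18 (edgeR adjusted p = 0.0162, 3 of 3 libraries above the 0 h mean) in CKO. For Utp4 in CTL it was 0.80 ± 0.16 (edgeR adjusted p = 0.00036, 5 of 5 libraries above the 0 h mean). In CKO, Utp4 was at 0.31 and not called without CKO library 11.18 at 6 h; the call was also lost without CKO library 4.29, 5.6 or 9.20 or CTL library 5.6 at 0 h.

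The other 5 called in CTL but not in CKO were Rrp9, Wdr75, Utp18, Wdr43 and Nop14. In CKO the log2 fold changes of these 5 were 0.54 ± 0.23 (Rrp9), 0.41 ± 0.20 (Wdr75), 0.30 ± 0.15 (Utp18), 0.43 ± 0.20 (Wdr43) and 0.43 ± 0.18 (Nop14), with edgeR adjusted p between 0.0625 (Nop14) and 0.129 (Utp18). Rrp9, a protein of the U3 particle that guides the first cuts, had 68.3, 92.3, 70.2, 151 and 124 CPM in CTL at 6 h against 50.4 to 66.0 CPM in CTL at 0 h, a log2 fold change of 0.76 ± 0.20 (edgeR adjusted p = 0.00278, 5 of 5 libraries above the 0 h mean). Wdr75 and Wdr43 belong to the same early complex as Utp4; Wdr75 changed by 0.57 ± 0.17 (edgeR adjusted p = 0.00825, 5 of 5 libraries above the 0 h mean) in CTL. Wdr43 changed by 0.55 ± 0.18 (edgeR adjusted p = 0.0114, 4 of 5 libraries above the 0 h mean) in CTL and was not called without CTL library 9.20 at 6 h, CTL library 5.6 at 0 h, or CKO library 4.29, 5.6 or 9.20 at 0 h. Utp18, of a further early complex, changed by 0.55 ± 0.13 (edgeR adjusted p = 0.00158, 5 of 5 libraries above the 0 h mean) in CTL, and its CTL groups did not overlap. Nop14 changed by 0.42 ± 0.15 (edgeR adjusted p = 0.0242, 4 of 5 libraries above the 0 h mean) in CTL, a call lost in 7 of the 20 fits without a single library, including those without CTL library 9.20 or 10.28 at 6 h. The 8 small-subunit genes called in neither genotype were Utp3, Utp6, Utp14a, Utp15, Utp20, Heatr1, Rrp12 and Nob1. Among them, Heatr1, of the complex of Utp4, had the highest CTL value, 0.56 ± 0.24 (edgeR adjusted p = 0.0543), with 64.3 CPM in CTL library 4.24 and 283 CPM in 9.20 at 6 h. Nob1, the endonuclease that makes the last cut of the small-subunit RNA, had -0.13 ± 0.16 in CKO and 0.03 ± 0.14 in CTL. Utp3 had -0.02 ± 0.11 in CKO and -0.05 ± 0.10 in CTL.

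Of the 15 genes of large subunit assembly, 2, Nop16 and Nop2, were called higher in CKO and 10 in CTL, and none lower in either. The share called higher in CKO, 13.3%, lay below the 22.3% of all genes, and that in CTL, 66.7%, above their 40.2%. Over genes with a mean of at least 1 CPM the shares were 10.3% and 17.0%. Nop16, a nucleolar protein of the early large-subunit particle, had the smallest adjusted p of the 48 genes in CTL. Nop16 had 25.1, 25.9 and 50.8 CPM in CKO at 6 h, against a lowest, median and highest of 16.0, 17.5 and 19.5 CPM in CKO at 0 h. Nop16 had 41.7, 40.3, 29.8, 64.9 and 53.1 CPM in CTL at 6 h, against a lowest, median and highest of 15.0, 16.0 and 20.6 CPM in CTL at 0 h. All 8 libraries at 6 h lay above all 12 at 0 h, and CTL library 5.13 was the lowest of its group. Nop16 had a log2 fold change of 0.95 ± 0.20 (edgeR adjusted p = 0.00197, 3 of 3 libraries above the 0 h mean) in CKO. For Nop16 in CTL it was 1.43 ± 0.18 (edgeR adjusted p = 4.47e-06, 5 of 5 libraries above the 0 h mean). Nop2 had 69.9, 74.1 and 148 CPM in CKO at 6 h, against a lowest, median and highest of 52.7, 54.4 and 63.9 CPM in CKO at 0 h. Nop2 had 54.3, 101, 82.6, 169.8 and 139 CPM in CTL at 6 h, against a lowest, median and highest of 50.7, 57.7 and 62.7 CPM in CTL at 0 h. Nop2, a methyltransferase of the large-subunit RNA, did not overlap between times in CKO, and in CTL only library 4.24 lay within the range at 0 h. Nop2 had a log2 fold change of 0.80 ± 0.25 (edgeR adjusted p = 0.019, 3 of 3 libraries above the 0 h mean) in CKO. For Nop2 in CTL it was 0.95 ± 0.22 (edgeR adjusted p = 0.00128, 4 of 5 libraries above the 0 h mean). In CKO, Nop2 was at 0.36 and not called without CKO library 11.18 at 6 h; the call was also lost without CKO library 4.29, 5.6 or 9.20 at 0 h.

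Nip7, whose yeast counterpart joins the large-subunit particle, had a log2 fold change of 0.35 ± 0.17 in CKO (edgeR adjusted p = 0.115). Nip7 had 61.2, 55.7, 42.8, 75.7 and 69.2 CPM in CTL at 6 h against 31.5 to 42.9 CPM in CTL at 0 h, a log2 fold change of 0.78 ± 0.15 (edgeR adjusted p = 0.000272, 5 of 5 libraries above the 0 h mean). Rrs1, needed for the large-subunit RNA in yeast, had 0.62 ± 0.26 in CKO (edgeR adjusted p = 0.0701) and changed by 0.87 ± 0.23 (edgeR adjusted p = 0.00318, 5 of 5 libraries above the 0 h mean) in CTL. Noc3l, whose yeast counterpart pairs with that of Noc2l, had 0.46 ± 0.21 in CKO (edgeR adjusted p = 0.0933) and changed by 0.68 ± 0.18 (edgeR adjusted p = 0.00356, 5 of 5 libraries above the 0 h mean) in CTL. Ebna1bp2, whose yeast counterpart helps assemble the large subunit, had 0.44 ± 0.19 in CKO (edgeR adjusted p = 0.0733) and changed by 0.64 ± 0.16 (edgeR adjusted p = 0.00251, 5 of 5 libraries above the 0 h mean) in CTL, where its groups did not overlap. Gnl2, a GTPase of the late nuclear particle, had 0.41 ± 0.16 in CKO (edgeR adjusted p = 0.0595), where its groups did not overlap, and changed by 0.52 ± 0.14 (edgeR adjusted p = 0.00438, 4 of 5 libraries above the 0 h mean) in CTL. The complex of Pes1, Bop1 and Wdr12 gave 2 calls. Pes1 changed by 0.48 ± 0.18 (edgeR adjusted p = 0.025, 4 of 5 libraries above the 0 h mean) and Wdr12 by 0.48 ± 0.16 (edgeR adjusted p = 0.0159, 5 of 5 libraries above the 0 h mean) in CTL, but Bop1 had 0.11 ± 0.17 (edgeR adjusted p = 0.6) and was not called. The call of Pes1 was lost in 7 and that of Wdr12 in 5 of the 20 fits without a single library. Rrp1b changed by 0.66 ± 0.25 (edgeR adjusted p = 0.0303, 4 of 5 libraries above the 0 h mean) in CTL, a call lost in 7 of these fits, and its paralog Rrp1 had 0.05 ± 0.13 (edgeR adjusted p = 0.721). Nop53, Noc2l and Ftsj3 were called in neither genotype, with CTL values of 0.15 ± 0.13 for Nop53, 0.26 ± 0.22 for Noc2l and 0.37 ± 0.20 for the methyltransferase Ftsj3.

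Myc and its partner Max bind the E-box CACGTG, so this motif was searched in the 250 bases before the RefSeq start of the 40 genes with an entry (GRCm38.p6). CACGTG reads the same on both strands, so 1 search covers both. It was found in 3 of the 40 windows (7.5%): those of Rrn3, with 2 matches, Utp18 and Nop2. Among the genes called higher in CTL, 2 of 28 windows held it (7.14%), and among the others 1 of 12 (8.33%). The share was 6.86% over 27025 symbols of the table, 8.45% over the 15384 of them tested and 9.77% over 10029 with a mean of at least 1 CPM. No match says only that these letters are not in this window. Sequences follow for Nop16, Ncl and Nop58, 3 of the 4 called genes with an entry and the smallest adjusted p in CTL, which hold no match, and for the 3 genes that do, chosen after their values were seen, with the motif in capitals. Each is 5′ to 3′ on the strand of its gene and limited to the stretch free of annotated untranslated and coding exons. The stretches are Nop16 chr13:54590091-54590206 (minus strand, 116 bases), Ncl chr1:86359456-86359705 (minus strand, 250 bases), Nop58 chr1:59684756-59684976 (plus strand, 221 bases), Rrn3 chr16:13780449-13780698 (plus strand, 250 bases), Utp18 chr11:93885767-93885851 (minus strand, 85 bases) and Nop2 chr6:125131633-125131882 (plus strand, 250 bases).

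Nop16: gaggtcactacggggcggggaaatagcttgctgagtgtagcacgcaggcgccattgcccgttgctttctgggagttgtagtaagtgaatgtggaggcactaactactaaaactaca
Ncl: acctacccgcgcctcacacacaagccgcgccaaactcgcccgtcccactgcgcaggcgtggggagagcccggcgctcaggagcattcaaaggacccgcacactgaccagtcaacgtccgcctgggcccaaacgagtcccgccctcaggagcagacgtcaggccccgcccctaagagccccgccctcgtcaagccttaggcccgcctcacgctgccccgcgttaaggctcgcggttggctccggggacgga
Nop58: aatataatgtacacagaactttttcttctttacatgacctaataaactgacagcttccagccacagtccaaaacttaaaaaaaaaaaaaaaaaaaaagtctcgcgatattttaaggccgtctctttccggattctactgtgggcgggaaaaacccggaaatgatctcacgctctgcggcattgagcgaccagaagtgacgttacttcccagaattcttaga
Rrn3: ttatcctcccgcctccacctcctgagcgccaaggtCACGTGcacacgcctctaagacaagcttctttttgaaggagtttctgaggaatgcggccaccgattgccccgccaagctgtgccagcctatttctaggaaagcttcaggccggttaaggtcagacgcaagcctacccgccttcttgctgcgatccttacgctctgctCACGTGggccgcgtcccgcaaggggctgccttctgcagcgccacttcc
Utp18: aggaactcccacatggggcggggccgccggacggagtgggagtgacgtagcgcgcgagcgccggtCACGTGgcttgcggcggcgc
Nop2: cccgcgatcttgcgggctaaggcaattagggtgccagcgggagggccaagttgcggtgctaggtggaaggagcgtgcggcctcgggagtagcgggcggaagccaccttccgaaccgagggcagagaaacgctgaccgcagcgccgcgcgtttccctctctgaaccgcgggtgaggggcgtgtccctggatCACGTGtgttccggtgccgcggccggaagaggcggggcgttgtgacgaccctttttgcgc

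The matches lie 215 and 48 bases before the start of Rrn3, which was called in neither genotype, 20 bases before that of Utp18, called in CTL, and 60 bases before that of Nop2, called in both. Noc4l, the other gene among those 4, is not shown because the longest stretch of its window free of such exons has 33 bases, under the minimum of 50 set for printing.

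The response was large in some libraries and small in others. The CPM of the 48 genes summed to 5373, 5408 and 8768 in CKO libraries 5.13, 5.6 and 11.18 at 6 h, against a lowest, median and highest of 4709, 4819 and 5729 in CKO at 0 h. In CTL the sum was 4674, 6937, 5837, 9611 and 8376 in libraries 4.24, 4.29, 5.13, 9.20 and 10.28 at 6 h, against 4427, 4866 and 5521 at 0 h. In CPM the groups at 6 h and 0 h thus overlapped in both genotypes, but by share of raw counts, which uses no TMM factor, they did not. That share was 0.545% to 0.903% in CKO at 6 h against 0.45% to 0.493% in CKO at 0 h. In CTL the share was 0.601% to 1.02% at 6 h against 0.447% to 0.492% at 0 h. In CPM, 41 of the 48 genes had their highest level of all 20 libraries in CTL library 9.20 at 6 h. The mean sum was 6516 ± 1951 in CKO (SD, n = 3) and 7087 ± 1965 in CTL (SD, n = 5) at 6 h, and 4946 ± 389 in CKO and 4928 ± 392 in CTL at 0 h (SD, n = 6 each).

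**Figure D3:**
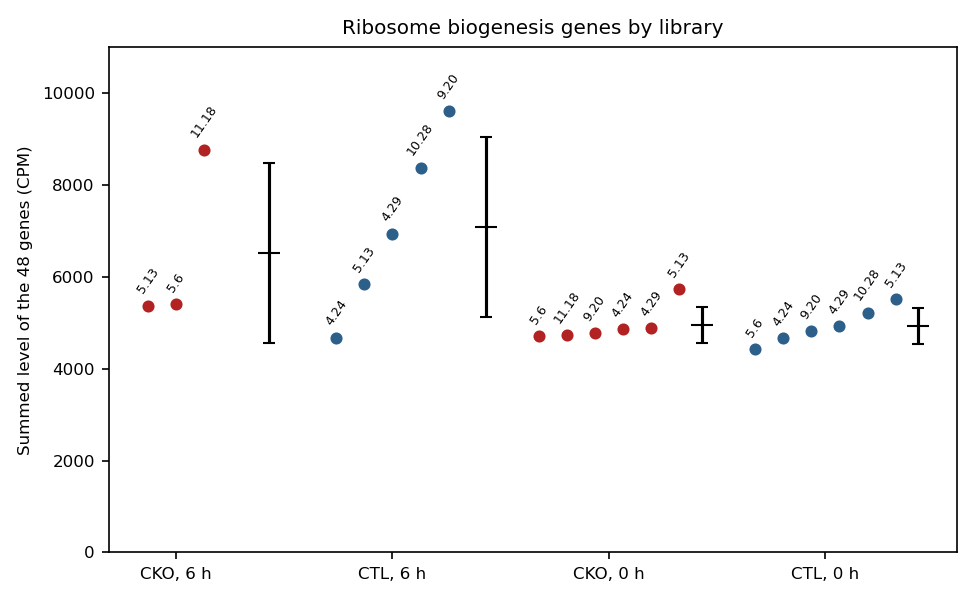
Summed level of the 48 genes in CPM (vertical axis) in each library, by group, with CKO in red and CTL in blue; the numbers name the libraries, and the bars give the group mean and SD. At 0 h all 12 libraries lie between 4427 and 5729 CPM, and at 6 h the 8 libraries spread from 4674 to 9611 CPM.

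Libraries with the same number can be set against each other, although the labels do not say what the number marks. The sum at 6 h over that at 0 h was 0.938, 1.15 and 1.86 for CKO numbers 5.13, 5.6 and 11.18, and 1.00, 1.41, 1.06, 2.00 and 1.61 for CTL numbers 4.24, 4.29, 5.13, 9.20 and 10.28. Number 5.13 was near 1 in both genotypes, and it had the highest sum of both genotypes at 0 h. By share of raw counts, CKO number 5.13 had 0.545% at 6 h and 0.493% at 0 h. CTL number 4.24 had 0.636% at 6 h and 0.462% at 0 h by that share. The median log2 difference over the 48 genes was -0.15, 0.14 and 0.94 in CKO and 0.05, 0.47, 0.09, 1.13 and 0.74 in CTL, in the same order. In 11.18 of CKO 47 of 48 genes were higher at 6 h, in 9.20 and 10.28 of CTL 46 of 48 each, and in 5.13 of CKO 15 of 48. The 78 cytosolic ribosomal protein mRNAs, whose proteins the 48 factors assemble with ribosomal RNA, had ratios in another order: their summed level at 6 h over 0 h was 0.663, 0.965 and 0.947 in CKO and 1.33, 1.01, 0.699, 0.858 and 0.820 in CTL.

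Myc, whose protein activates many genes of ribosome biogenesis, varied between the same libraries. It had 155, 187 and 467 CPM in CKO at 6 h, against 46.0 to 63.4 CPM in CKO at 0 h. In CTL it had 259, 290, 184, 497 and 411 CPM at 6 h, against 60.2 to 90.0 CPM in CTL at 0 h. Its log2 fold change at 6 h was 2.40 ± 0.28 in CKO (edgeR adjusted p = 3.67e-06, 3 of 3 libraries) and 2.23 ± 0.25 in CTL (edgeR adjusted p = 1.25e-06, 5 of 5 libraries). The 4 libraries with the highest sums at 6 h (CTL 9.20, CKO 11.18, CTL 10.28 and CTL 4.29) were also the 4 with the most Myc mRNA, in the same order. CTL library 4.24 went against this order, with the fifth highest Myc level and the lowest sum in CPM. Its share of raw counts, 0.636%, was not the lowest at 6 h. Whether the level of Myc sets that of the 48 genes was not tested.

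**Figure D4:**
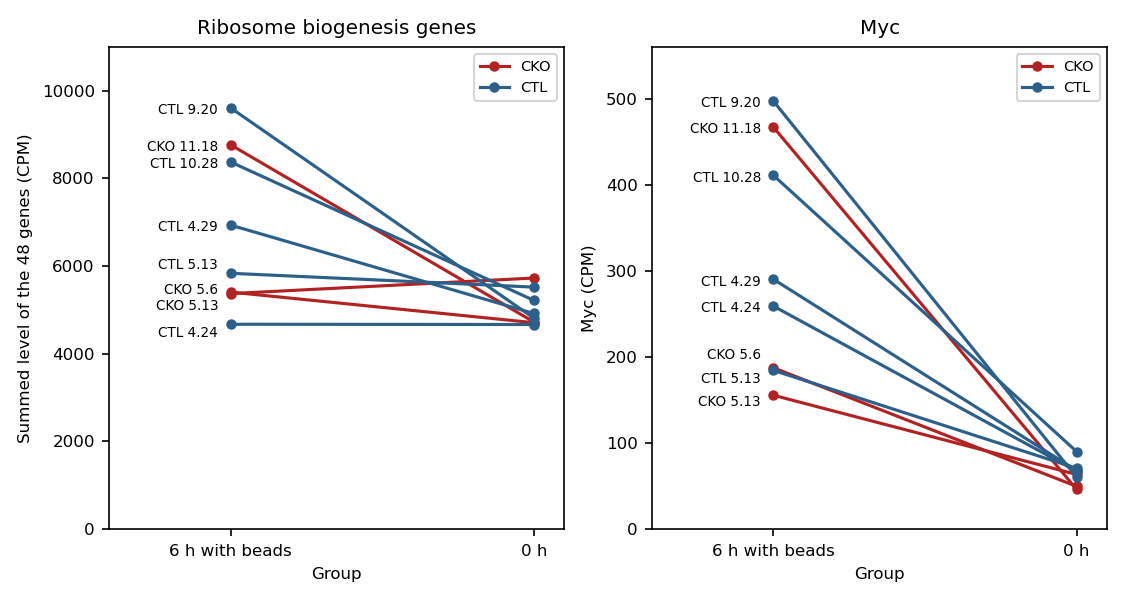
Summed CPM of the 48 genes (left panel) and CPM of Myc (right panel) at 6 h with beads and at 0 h, with a line joining libraries of the same genotype and number; CKO is red and CTL blue. Myc is higher at 6 h in all 8 numbered sets, with 155 to 497 CPM against 46.0 to 90.0 CPM at 0 h, while the sum of the 48 genes runs from 0.938 to 2.00 times its value at 0 h.

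Between CKO and CTL no difference was called for any of the 48 genes in unstimulated cells. At 0 h, edgeR called 0 of the 48 genes, against 0.381% of all genes called higher and 0.324% lower in CKO, and 2 had an unadjusted p under 0.05. DESeq2 also called 0, against 1.24% of all genes higher and 0.801% lower, and edgeR with the filter of a mean of at least 1 CPM without CTL library 4.24 at 6 h called 0, against 2.7% and 2.65%. The median log2 fold change, CKO over CTL, was -0.03, beside -0.08 over all genes and 0.02 over genes with a mean of at least 1 CPM. Of the 48, 18 were positive. The range of the fold changes was -0.35 to 0.26, with standard errors of 0.09 to 0.27. Wdr12 had the smallest p, with 24.1, 31.0 and 36.1 CPM in CKO and 30.2, 38.6 and 50.2 CPM in CTL (lowest, median and highest), a log2 fold change of -0.35 ± 0.16 (edgeR adjusted p = 0.531, 6 of 6 CKO libraries below the CTL mean). Nop53 had 427, 451 and 587 CPM in CKO and 298, 395 and 503 CPM in CTL, a log2 fold change of 0.26 ± 0.12 (edgeR adjusted p = 0.555, 6 of 6 CKO libraries above the CTL mean). For both genes the groups overlapped. The next in order of p were Gnl3 (-0.25 ± 0.19), Polr1c (0.13 ± 0.11), Utp3 (0.11 ± 0.09) and Dkc1 (-0.15 ± 0.16). Within the 5 shared numbers the sum in CKO over that in CTL lay between 0.991 and 1.06.

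At 6 h edgeR again called 0 of the 48 genes, against 0.21% of all genes called higher and 0.0427% lower in CKO, and 4 had an unadjusted p under 0.05. DESeq2 called 0 higher and 1 lower, Nop10, against 1.02% and 0.377% of all genes. With the filter of a mean of at least 1 CPM and without CTL library 4.24, edgeR likewise called 0 higher and Nop10 lower (edgeR adjusted p = 0.0463), against 0.871% and 0.388%. The median log2 fold change was -0.22, beside -0.34 over all genes and 0.07 over genes with a mean of at least 1 CPM. Of the 48, 41 were negative and 7 positive. Positive were 9579 of all 28082 genes and 8222 of the 14189 with a mean of at least 1 CPM. By role the medians were -0.06 for RNA polymerase I transcription, -0.30 for box C/D, -0.47 for box H/ACA, -0.20 for the scaffolds, -0.16 for the small and -0.18 for the large subunit. Over the fits without a single library the median of the 48 genes lay between -0.54, without CKO library 11.18, and -0.02, without CKO library 5.13, so with 3 CKO libraries it rests on which are present. Number 5.13 alone is present in both genotypes at 6 h, and there 45 of 48 genes were lower in CKO, with a median log2 difference of -0.19 and a ratio of sums of 0.92.

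Nop10 had the largest difference, with 32.1, 35.2 and 43.8 CPM in CKO and 95.8, 54.6, 43.3, 64.9 and 59.1 CPM in CTL. The groups overlapped only in that CKO library 11.18 lay just above CTL library 5.13. The log2 fold change was -0.78 ± 0.20 (edgeR adjusted p = 0.133, 3 of 3 CKO libraries below the CTL mean), -0.59 without CTL library 4.24 and -0.91 without CKO library 11.18. Nop10 was called by DESeq2 (adjusted p = 0.0139) and by edgeR without CTL library 5.13 (edgeR adjusted p = 0.0249), and over all 34 alternatives the adjusted p ran from 0.0139 to 0.613. Nop53 went the other way, with 598, 579 and 512 CPM in CKO and 372, 485, 517, 395 and 409 CPM in CTL, a log2 fold change of 0.37 ± 0.15 (edgeR adjusted p = 0.317, 3 of 3 CKO libraries above the CTL mean), and its groups overlapped. The other 4 with the smallest p were Dkc1 (-0.44 ± 0.20), Nop58 (-0.43 ± 0.21), Nhp2 (-0.50 ± 0.24) and Nop16 (-0.44 ± 0.22), each with an edgeR adjusted p = 0.317 and 1 of 3 CKO libraries above the CTL mean. Of the 6 genes with the smallest p at 6 h, 3 (Dkc1, Nop10 and Nhp2) are of the 4 proteins of the box H/ACA particle. This count comes from a ranking by the same p-values, none of them called by edgeR, and is no test of the particle. Nop10 and Nhp2 have 1.11 and 1.15 kb of exons, and the part of length in these differences was not tested.

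The difference of the responses, CKO minus CTL, had a median of -0.14 over the 48 genes, beside -0.16 over all 28082 genes. Of all genes, 901 had an unadjusted p under 0.05. Over the 14189 genes with a mean of at least 1 CPM the median was 0.04. In the fit of only such genes it was -0.21 for the 48, beside -0.04 over all genes in it. The log2 fold change at 6 h was larger in CTL for 40 of the 48 genes, and the difference was called for none of them by edgeR. It was positive for 8 of the 48, for 10853 of all 28082 genes and for 7913 of the 14189. The smallest p was that of Nop10, with a difference of -0.68 ± 0.24 (edgeR adjusted p = 0.868), followed by Nip7 (-0.43 ± 0.23), Nop16 (-0.48 ± 0.28), Nhp2 (-0.46 ± 0.31), Polr1c (-0.26 ± 0.18) and Nop58 (-0.34 ± 0.26). The median difference was -0.46 without CKO library 11.18 at 6 h and 0.01 without CKO library 5.13 at 6 h.

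**Figure D5:**
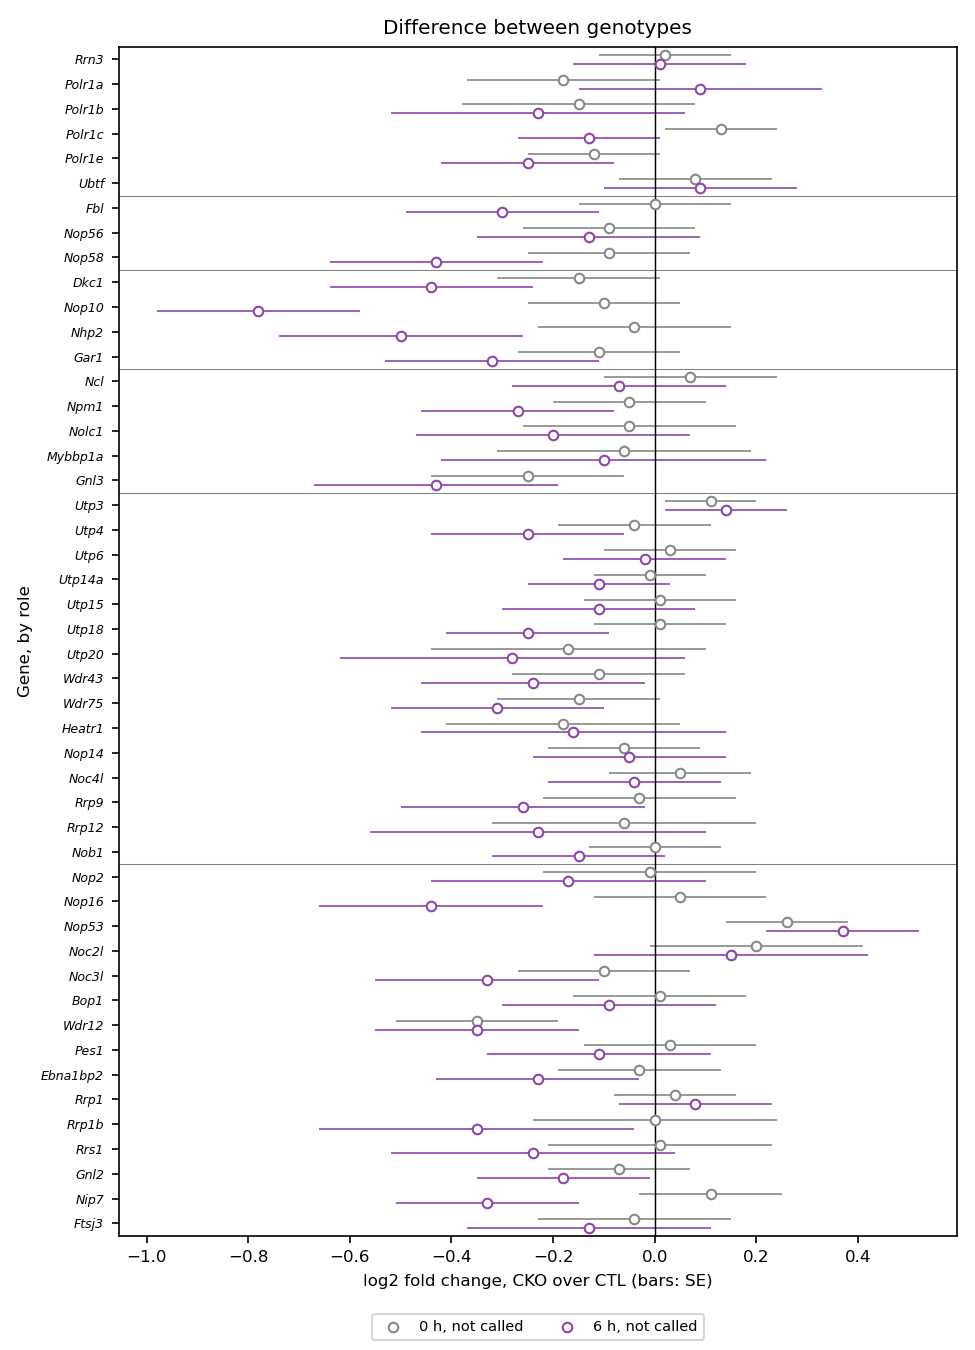
Log2 fold change of each of the 48 genes (rows, by role), CKO over CTL, at 0 h (grey) and at 6 h (purple), with the standard error as a bar; every point is open because none was called by edgeR. At 6 h 41 of 48 points lie left of 0, Nop10 the farthest at -0.78, and Nop53 lies farthest right at 0.37.

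The rest of the pathway was counted in lists of further factors, chosen by name, and none of these lists was called higher more often than all genes in CTL (40.2%). Over the 14189 genes with a mean of at least 1 CPM, the same fit called 10.3% higher in CKO and 17.0% in CTL. The median log2 fold change of these 14189 genes was -0.18 in CTL. Of 39 other small-subunit factors tested, CKO had 5 higher and 3 lower calls at 6 h, and CTL had 15 higher and 3 lower calls, with a median log2 fold change of 0.23 in CTL. The shares called higher, 12.8% in CKO and 38.5% in CTL, lay below the 22.3% and 40.2% of all genes. They lay above the 10.3% and 17.0% of genes with a mean of at least 1 CPM. Pno1, which works beside Nob1, changed by 0.70 ± 0.22 (edgeR adjusted p = 0.0176, 3 of 3 libraries above the 0 h mean) in CKO. For Pno1 in CTL it was 1.14 ± 0.19 (edgeR adjusted p = 8.88e-05, 5 of 5 libraries above the 0 h mean). Rcl1 changed by 0.78 ± 0.22 in CKO (edgeR adjusted p = 0.0111) and 1.04 ± 0.19 in CTL (edgeR adjusted p = 0.000239), both called. Tbl3 had 0.44 ± 0.19 in CKO, not called, and 0.70 ± 0.16 in CTL (edgeR adjusted p = 0.00147). Of 40 other large-subunit factors, CKO had 3 higher and 1 lower calls, and CTL had 15 higher and 1 lower calls, also with a median of 0.23 in CTL. Here 7.5% were called higher in CKO and 37.5% in CTL, again below all genes. Beside genes with a mean of at least 1 CPM, the share was lower in CKO and higher in CTL. Nifk had 0.56 ± 0.22 in CKO and 0.92 ± 0.19 in CTL, and Ppan had 0.62 ± 0.23 in CKO and 0.84 ± 0.20 in CTL, called in both genotypes. Mrto4 had 0.59 ± 0.23 in CKO, not called, and 0.95 ± 0.20 in CTL. Among 22 other factors of ribosomal RNA transcription and modification, CKO had 5 higher and 2 lower calls, and CTL had 8 higher and 5 lower calls. The shares called higher were 22.7% in CKO, near that of all genes, and 36.4% in CTL. Both lay above those of genes with a mean of at least 1 CPM. Naf1, an assembly factor of box H/ACA particles, changed by 1.25 ± 0.27 (edgeR adjusted p = 0.00189, 3 of 3 libraries above the 0 h mean) in CKO. For Naf1 in CTL it was 1.61 ± 0.24 (edgeR adjusted p = 2.86e-05, 5 of 5 libraries above the 0 h mean). Lyar had 0.63 ± 0.21 in CKO and 0.92 ± 0.18 in CTL, both called. Cd3eap, a subunit of RNA polymerase I, had 0.39 ± 0.18 in CKO, not called, and 0.88 ± 0.16 in CTL.

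Other lists gave calls in both directions or few calls. All genes tested gave 22.3% higher and 13.7% lower calls in CKO, and 40.2% and 20.5% in CTL. Genes with a mean of at least 1 CPM gave 10.3% and 24.3% in CKO, and 17.0% and 36.8% in CTL. Of 13 subunits of the RNA exosome, which trims ribosomal RNA ends, CKO had 0 higher and 3 lower calls, and CTL had 2 higher and 2 lower calls. The share called lower was 23.1% in CKO and 15.4% in CTL. Exosc8 had -0.39 ± 0.08 in CKO and -0.44 ± 0.07 in CTL and Exosc5 had -0.50 ± 0.10 in CKO and -0.32 ± 0.08 in CTL, all called lower. Dis3 had 0.51 ± 0.24 in CKO, not called, and 0.51 ± 0.21 in CTL, called higher. Of 11 subunits of RNA polymerase III, which makes the smallest ribosomal RNA of the large subunit, CKO had 0 higher and 1 lower calls, and CTL had 2 higher and 4 lower calls. Here the share called lower was 9.09% in CKO and 36.4% in CTL. Polr3gl had -0.93 ± 0.17 (edgeR adjusted p = 0.0005, 3 of 3 libraries below the 0 h mean) in CKO. For Polr3gl in CTL it was -1.10 ± 0.14 (edgeR adjusted p = 6.37e-06, 5 of 5 libraries below the 0 h mean). In CTL, Polr3d had 0.44 ± 0.19, called higher. Of 78 cytosolic ribosomal protein genes, CKO had 0 higher and 1 lower calls, and CTL had 0 higher and 2 lower calls by edgeR, with 2 at an unadjusted p under 0.05 in each genotype and medians of -0.18 in CKO and -0.03 in CTL. The 2 were Rpl3, with -0.25 ± 0.14 in CKO, not called, and -0.43 ± 0.12 in CTL, and Rpl13a, with -0.39 ± 0.14 in CKO and -0.41 ± 0.12 in CTL. Between the genotypes edgeR called no gene of these lists at 0 h or 6 h. Calls by DESeq2 and with other scalings were not counted for these lists.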

How the data were processed

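RNA of 20 libraries was measured as poly(A)-selected, stranded paired-end sequencing, per the labels' protocols. The authors deposited raw whole-number counts per Ensembl gene in a single table; STAR 2.5.2b, Trimmomatic 0.36, Subread 1.5.2, featureCounts and the build GRCm38 are listed in the submitters' processing notes. Which annotation release was counted, and whether by strand, is not given in the sources used here. The 19 of the 48 genes with an exon that overlaps an exon of another gene are therefore uncertain, 4 of them (Nop56, Nop58, Ncl and Gnl3) with small RNA genes on the same strand. Symbols, coordinates and exon lengths come from GENCODE M21 by gene ID (48970 of 49315 matched); promoter sequences come from RefSeq. The table held 0 columns of other samples. No library is a copy of another: 43 pairs within groups differed with a chi-square per degree of freedom of 21.5 to 303.

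Counts were tested with edgeR 4.0.16 (R 4.3.3): filterByExpr with a minimum count of 10 and a minimum total of 15, TMM factors, and a robust quasi-likelihood fit of the 4 groups with no covariate, in all 20 libraries. The sex label was left out of the fit because it is contradicted in 2 libraries. P-values are two-sided and adjusted by Benjamini and Hochberg over 28082 genes. The fit was run on simulated counts with known changes in a small set of genes. Those counts were drawn independently for each library, without the correlation of same-numbered libraries or the broad change at 6 h. The run thus does not show how the fit behaves under these. Libraries are grouped by the genotype and time in the labels. Deviations from the group mean correlated between same-numbered libraries. The correlations were 0.30 to 0.63 for CKO and CTL at 0 h and 0.18 to 0.49 for CKO at 6 h and 0 h. They were 0.32 to 0.50 for CTL at 6 h and 0 h. CKO and CTL at 6 h share a single number, 5.13 (0.56). Libraries of different numbers were not correlated for comparison, and same-numbered libraries also had the same sex by Xist. Whether the numbers pair the libraries is thus not shown. Alternatives were RLE factors, library totals, other filters, DESeq2 1.42.0, sex by label or Xist, and the number as a fixed block. Further ones were genotype and number together as a random block (limma 3.58.1), only the groups compared, a fold of 1.5, and leaving out libraries. In addition, 2 combinations with the filter of a mean of at least 1 CPM were chosen after seeing the data.

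The 48 genes, the lists and the tests were chosen with earlier results of these data known. Named were, for the response, per role the 4 called genes with the largest change in CTL, all called lower and all called in 1 genotype only; the 6 genes with the smallest p in each genotype comparison and in the interaction; the 3 highest and lowest per length; Pcbp2 and Myc; and from each further list the 3 called genes with the largest change in CTL. Other genes were named after their values were seen. Results for 2 genes of the further lists and marker lists are not reported here.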

Additional observations from a re-analysis of the deposited data

Results flagged for a closer look

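In groups of 5 or 6 libraries, a library far from the others was found in 18 of 147 checks, by a rule that chance meets in about 1 of 20. The checks cover the 48 genes and their sum in the same libraries and are not independent. The count of 18 thus cannot be compared with that share. Of the 18, 15 concern CKO library 5.13 at 0 h, which was the highest of its group each time. The summed level of the 48 genes was 5729 CPM there, against 4709 to 4875 CPM in the other 5 CKO libraries at 0 h. Among RNA polymerase I genes, Rrn3 had 78.1 CPM (others 58.0 to 64.7), Polr1c 60.0 CPM and Polr1e 27.8 CPM. Among snoRNP genes, Fbl had 141 CPM, Nop10 58.2 CPM and Nhp2 45.1 CPM. Of the scaffolds, Nolc1 had 111 CPM and Mybbp1a 245 CPM. Of the small-subunit genes, Utp3 had 85.8 CPM, Utp4 49.2 CPM and Wdr43 110.4 CPM. Of the large-subunit genes, Nop53 had 587 CPM (others 427 to 471), Rrp1 252 CPM and Rrs1 47.9 CPM. CTL library 5.13 at 0 h stood out for Nop10, with 61.1 CPM (others 41.9 to 48.7), and for Utp6, with 71.8 CPM (others 57.7 to 62.3). CTL library 4.24 at 0 h stood out for Nob1, with 47.3 CPM, below the others (59.9 to 64.3). Both 5.13 libraries at 0 h also had the lowest TMM factors of all 20 libraries, 0.861 in CKO and 0.891 in CTL; the part of this factor in the levels was not tested.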

How the results depend on the processing

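Called genes among the 48 numbered 0 at 0 h between CKO and CTL, and 0 in the difference of the responses, under every alternative run. Between CKO and CTL at 6 h the count was 1 with DESeq2 and 1 with a mean of at least 1 CPM without CTL library 4.24 at 6 h; without a single library it was 0 to 1. For 6 h against 0 h in CKO the count was 13, and became 30 with library totals (25.1% of all genes higher), 29 with a mean of at least 1 CPM and 21 with DESeq2. It was 4 without the libraries whose Xist goes against the label and 0 against a fold of 1.5 (14.7% of all genes higher). With a mean of at least 1 CPM without CTL library 4.24 at 6 h it was 33. Without a single library it was 4 to 24 (7, 6 and 5 without CKO library 4.29, 5.6 or 9.20 at 0 h). For 6 h against 0 h in CTL it was 33, became 9 against a fold of 1.5 (8 higher, against 32.7% of all genes), and was 23 to 40 without a single library. The cause of these shifts was not tested, except that a test against a fold of 1.5 asks for a larger change. Without CKO library 11.18 at 6 h, 5 log2 fold changes in CKO that were not called changed sign: Polr1e to -0.02, Fbl to -0.13, Dkc1 to -0.10, Gar1 to -0.10 and Rrp1b to -0.24.

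With the replicate block the counts were 10 in CKO and 29 in CTL (9 and 28 higher, where all genes gave 32.9% and 41.8%), and 0 between the genotypes at each time. With the random block of genotype and number, whose estimated correlation was 0.322, they were 14 in CKO and 31 in CTL. There all 28082 genes gave 9186 higher and 4785 lower calls in CKO, and 11823 and 6918 in CTL. With a mean of at least 1 CPM and the replicate block together 17 were called in CKO and 39 in CTL. The 14146 genes of that fit gave 2204 higher and 2376 lower calls in CKO, and 3721 and 3422 in CTL. A fit of only the groups compared gives no value for the difference of the responses. CKO has 3 libraries at 6 h. No gene of the 48 had fewer than 798 counts in a library, yet leaving out the shallowest library, CTL 4.24 at 6 h, moved the CKO count to 24; whether the number of libraries or their depth limits the comparisons more was not tested.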
